A study of Homo sapiens with 2 samples.

Results

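H/ACA box small nucleolar RNAs (snoRNAs) were taken as all genes of GENCODE v29 whose symbol starts with SNORA. There were 147 such genes, with 142 distinct symbols, among the 57894 genes to which the deposited transcripts were joined. Of these, 46 had enough reads to be tested, 67 had some reads but too few, and 34 had no reads in any library. SNORA73, SNORA53 and SNORA74 genes are mostly longer than the rest and are described apart: they make up 8 genes, 6 of them tested, against 139 others, 40 of them tested. Reads were assigned per transcript as estimated counts, and levels are given as CPM (reads scaled to a common library size with edgeR's TMM factors) or as TPM. TPM is abundance per effective length and was used to compare genes of different length.

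H/ACA snoRNAs fold into hairpins joined by a hinge that carries the H box, and they end shortly after an ACA triplet. In the nucleolus they act with dyskerin (DKC1), NHP2, NOP10 and GAR1, and most pair with ribosomal RNA precursors to choose the uridines that dyskerin converts to pseudouridine. Most human members are cut out of introns of host genes, so their output depends on host transcription, on splicing and on protection by the 4 core proteins.

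The study compared HEK293 cells, an established line derived from human embryonic kidney, with a LARP7 knockout of the same line. LARP7 is an RNA-binding protein that holds and stabilises 7SK, a nuclear RNA that restrains transcription elongation. The groups were parental HEK293 cells without an edit named in the labels (2 libraries) and the LARP7 knockout clone 1-11 (2 libraries), with no further treatment or time point named. Per the labels, TRIzol was used for extraction and the Ovation SoLo kit for library preparation.

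All knockout reads came from 1 clone, so the knockout and any other property of that clone cannot be told apart. A source field of the knockout sample reads wildtype, whereas its title and genotype field give the knockout, and the genotype field was followed. The labels do not say whether replicate libraries are separate cultures. The p-values therefore cover library-to-library spread only, and that spread could be technical. In such bulk samples, fewer cells of a type and less RNA per cell cannot be told apart.

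Libraries held 12851942 to 18483220 estimated reads, and SNORA genes took 0.0269 to 0.0478% of them. LARP7 messenger RNA was lower in the knockout by 0.65 on the log2 scale without passing the test (edgeR, adjusted p = 0.135), and 7SK RNA fell by 4.89 (edgeR, adjusted p = 1.13e-06). The labels do not give the edited position in LARP7. All 9 HEK293 markers stayed above 1 CPM in every library, while none of 7 markers of other cell types did. Of the 9, the neurofilament gene NEFM fell from 49.4 and 73.6 CPM to 7.76 and 8.58 CPM (log2 fold change -2.91, adjusted p = 0.00164, edgeR). Those 7 summed to 1.42, 2.87, 1.40 and 1.48 CPM in parental replicates 1 and 2 and knockout replicates 1 and 2, and PECAM1 (endothelium) and HBB (red cells) were at 0.

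The sequences below show the members on which the results turn: the abundant longer RNAs first, then SNORA23, the 182-base member that sits with them by level, and 5 members of standard length. They are GENCODE v29 transcripts on GRCh38, written 5′ to 3′ in DNA letters. Capitals mark a match to the H box pattern ANANNA (the one nearest the middle, on the transcribed strand, searched in the central 1 of 3 equal stretches of the RNA) and an ACA that sits exactly 3 bases before the annotated end.

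SNORA73A: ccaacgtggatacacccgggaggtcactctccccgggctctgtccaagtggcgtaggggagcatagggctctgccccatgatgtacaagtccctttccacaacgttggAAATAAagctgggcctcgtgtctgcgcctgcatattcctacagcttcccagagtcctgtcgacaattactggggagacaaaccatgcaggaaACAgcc

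SNORA73B: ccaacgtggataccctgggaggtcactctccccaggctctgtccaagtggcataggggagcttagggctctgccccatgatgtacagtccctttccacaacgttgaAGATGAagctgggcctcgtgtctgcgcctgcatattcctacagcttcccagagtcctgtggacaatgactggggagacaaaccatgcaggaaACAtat

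SNORA53: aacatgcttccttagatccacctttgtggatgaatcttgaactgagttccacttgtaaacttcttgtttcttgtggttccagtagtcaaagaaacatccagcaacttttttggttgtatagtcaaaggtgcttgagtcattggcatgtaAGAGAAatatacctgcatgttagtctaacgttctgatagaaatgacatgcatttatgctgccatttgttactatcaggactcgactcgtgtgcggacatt

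SNORA23: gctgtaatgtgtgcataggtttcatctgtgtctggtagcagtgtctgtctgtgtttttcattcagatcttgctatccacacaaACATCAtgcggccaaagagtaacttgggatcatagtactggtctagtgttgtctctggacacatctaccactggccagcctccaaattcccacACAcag

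SNORA71A: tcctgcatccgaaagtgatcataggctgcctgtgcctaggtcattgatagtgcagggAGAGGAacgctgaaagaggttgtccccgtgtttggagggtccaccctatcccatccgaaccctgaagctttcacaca

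SNORA8: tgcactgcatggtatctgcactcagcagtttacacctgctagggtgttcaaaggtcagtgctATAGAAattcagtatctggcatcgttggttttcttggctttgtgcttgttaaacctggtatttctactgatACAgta

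SNORA7A: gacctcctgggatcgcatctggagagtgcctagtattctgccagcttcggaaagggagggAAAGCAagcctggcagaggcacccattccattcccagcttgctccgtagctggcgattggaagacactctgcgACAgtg

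SNORA24: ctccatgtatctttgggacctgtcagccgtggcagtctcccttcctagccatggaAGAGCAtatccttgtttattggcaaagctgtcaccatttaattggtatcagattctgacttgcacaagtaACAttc

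SNORA64: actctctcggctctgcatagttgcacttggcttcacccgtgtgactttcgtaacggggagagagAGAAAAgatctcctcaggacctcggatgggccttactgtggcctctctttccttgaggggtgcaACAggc

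The SNORA73 pair lies side by side at chr1:28507366-28507571 and chr1:28508559-28508762 on the plus strand, within the span of RCC1, which encodes the exchange factor for the GTPase Ran. SNORA73A also overlaps an exon of 1 transcript of SNHG3, a noncoding host gene. SNORA53 (chr12:98599635-98599883, plus strand) lies within SLC25A3, the mitochondrial phosphate carrier, and overlaps an exon of 1 of its transcripts. SNORA23 (chr11:9428773-9428954, plus strand) is in an intron of IPO7, a nuclear import receptor. SNORA71A (chr20:38427309-38427442, minus strand) is in an intron of the noncoding gene SNHG17. SNORA8 (chr11:93732361-93732499, minus strand) lies in TAF1D, a subunit of an RNA polymerase I factor, and SNORA7A (chr3:12840312-12840450, minus strand) lies in RPL32, a ribosomal protein gene.

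Annotated length ran from 68 to 701 bases with a median of 134, and 135 of 147 genes were 120 to 160 bases long. The ACA stood exactly 3 bases before the end in 111 of 147 SNORA genes (75.5%), against 21.2% of 725 other annotated small RNA genes of 120 to 160 bases. Within the last 10 bases it was found in 89.8% of SNORA genes and 32.0% of the others. ANANNA in the central stretch was found in 93.9% and 54.6%. Tested and untested members carried the exact ACA about as often, 35 of 46 and 76 of 101. SNORA53 and SNORA71A have no ACA at exactly that position, although SNORA71A ends in ACA itself.

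Several members are close copies, among which the authors' read assignment may divide reads. SNORA73A and SNORA73B were identical at 93.2% of aligned positions, SNORA7A and SNORA7B at 98.6%, SNORA14A and SNORA14B at 91.1%, and SNORA74B and SNORA74C-2 at 90.0%. SNORA15B-1 and SNORA15B-2 are identical in sequence, as are SNORA11D and SNORA11E. For 5 symbols the annotation also holds 2 overlapping genes. The 2 SNORA16A entries show the effect: the first was at 1.13, 1.01, 0.438 and 0 CPM (parental 1 and 2, knockout 1 and 2), and the second at 0.00066, 2.12, 0 and 0.687 CPM.

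No SNORA gene passed the test in either direction. With edgeR's quasi-likelihood test, 0 of 46 had an adjusted p under 0.05, against 0.833% of 18484 genes tested (0.503% lower). Adjusted p-values ran from 0.126 to 0.967. At an unadjusted p under 0.05 there were 10, all of them lower in the knockout, against 14.3% of all genes (7.67% lower). DESeq2 called 1 gene, SNORA71A, against 2.75% of genes (1.63% lower), and limma voom called 0 against 0.812% (0.498% lower).

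The fitted changes lay mostly below 0. Of 46 tested members, 41 had a log2 fold change below 0, against 49.7% of all genes, but only 16 did when the libraries were scaled on small RNA genes. Their median was -0.88, and that of all genes 0.0024. By symbol, 38 of the 40 shorter members were below 0 with a median of -0.97, and 3 of 6 SNORA73, SNORA53 and SNORA74 genes were, with a median of 0.03. The longest member by annotated span, SNORA59B (701 bases), is among the 40 because of its symbol. It had 2.05, 3.15, 1.67 and 1.83 CPM in parental replicates 1 and 2 and knockout replicates 1 and 2. Its log2 fold change was -0.55 (SE 0.45, adjusted p = 0.627, edgeR). Both knockout libraries lay below both parental libraries in 20 members (19 shorter ones and SNORA74C-2), against 22.7% of all genes. The opposite order held for 1 member, SNORA64, against 23.6% of all genes, and the groups overlapped in the other 25.

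SNORA73A and SNORA73B were by far the most abundant members. SNORA73, also called U17, is known for a role in cleavage of the ribosomal RNA precursor rather than for guiding a modification. SNORA73A was measured at 89.5 and 120.9 CPM in parental libraries and 85.7 and 105.4 CPM in knockout libraries. SNORA73B stood at 62.5 and 90.5 CPM in parental cells and 66.4 and 76.8 CPM in the knockout. In both genes the groups overlapped, and parental replicate 2 was the highest library. The log2 fold change was -0.14 (SE 0.17, adjusted p = 0.776, edgeR) for SNORA73A and -0.09 (SE 0.18, adjusted p = 0.866) for SNORA73B. Together they held 50.5, 43.3, 57.5 and 53.9% of all SNORA reads in parental replicates 1 and 2 and knockout replicates 1 and 2.

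SNORA53 had 18.1 and 21.9 CPM in parental cells and 19.0 and 26.6 CPM in the knockout. Its groups overlapped, knockout replicate 2 was highest, and its log2 fold change was 0.19 (SE 0.21, adjusted p = 0.736, edgeR). SNORA74A, a U19 RNA that guides modification of 28S ribosomal RNA and lies in the nuclear matrix gene MATR3, had 4.09, 5.32, 4.03 and 6.45 CPM in the same order of libraries. SNORA74B had 1.19, 2.38, 2.51 and 2.19 CPM. Parental replicate 1 was the lowest library for SNORA74B, and neither gene separated the groups. The sixth longer gene, SNORA74C-2, had 2.67 and 2.94 CPM in parental and 1.69 and 1.54 CPM in knockout libraries, a log2 fold change of -0.79 (SE 0.42, adjusted p = 0.444, edgeR). It was the only one of the longer genes whose groups did not overlap.

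SNORA23 is 182 bases long and was counted with the shorter genes because of its symbol. It had 12.5 and 19.6 CPM in parental and 14.1 and 18.7 CPM in knockout libraries. Its log2 fold change, 0.04 (SE 0.26, adjusted p = 0.967, edgeR), was the smallest in size of the 46, and its knockout values lay between the parental ones. SNORA71B, whose annotated span is 272 bases, had 5.97, 9.53, 4.79 and 6.57 CPM, a log2 fold change of -0.44 (adjusted p = 0.596, edgeR).

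**Figure D1:**
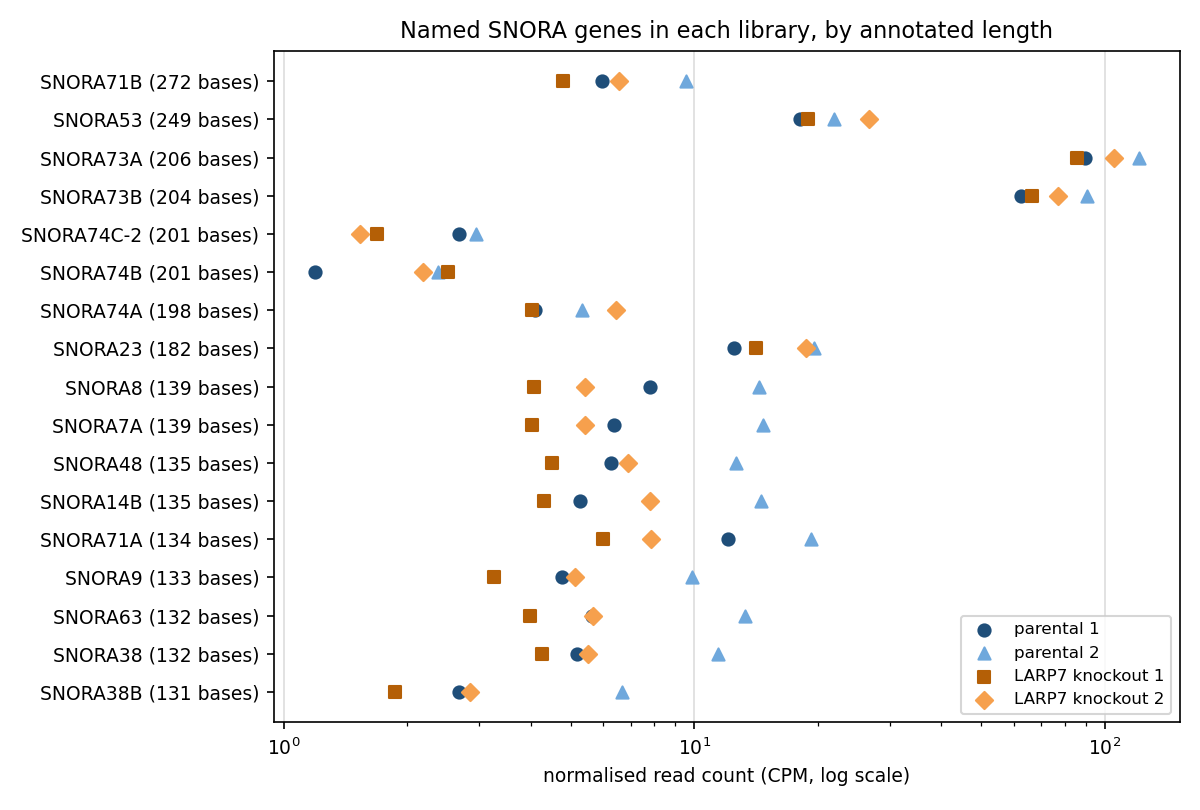
Normalised read count (CPM, log axis) of the 17 SNORA genes named by the rule, in each of 4 libraries, ordered by annotated length. In SNORA71A, SNORA8 and SNORA7A both knockout libraries lie below both parental ones, while in SNORA73A, SNORA73B, SNORA53 and SNORA23 the groups overlap.

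Among the members of standard length, SNORA71A was the most abundant per length and had the smallest adjusted p. It had 12.1 and 19.2 CPM in parental libraries, 15.7 ± 5.03 (SD, n = 2), and 6.01 and 7.87 CPM in knockout libraries, 6.94 ± 1.31 (SD, n = 2). Both knockout libraries lay below both parental ones. The log2 fold change was -1.17 (SE 0.28, adjusted p = 0.126, edgeR), and DESeq2 gave an adjusted p of 0.0188. Its neighbours in SNHG17 were closer to 0: SNORA71D had 2.78, 3.81, 2.04 and 2.19 CPM and a log2 fold change of -0.63 (adjusted p = 0.526, edgeR).

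SNORA8 had 7.81 and 14.3 CPM in parental and 4.07 and 5.43 CPM in knockout libraries, a log2 fold change of -1.21 (SE 0.35, adjusted p = 0.173, edgeR). SNORA7A had 6.37 and 14.7 CPM against 4.03 and 5.42 CPM, a log2 fold change of -1.14 (SE 0.40, adjusted p = 0.26, edgeR). In both, the groups did not overlap, and parental replicate 2 was the highest library. SNORA24, which guides modification of 18S ribosomal RNA and lies in the noncoding gene SNHG8, was picked out after its values were seen. It had 2.66 and 5.58 CPM in parental and 1.37 and 1.46 CPM in knockout libraries, a log2 fold change of -1.53 (SE 0.48, adjusted p = 0.203, edgeR).

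For the other abundant members of standard length the knockout values reached into the parental range. SNORA14B, from an intron of the mitochondrial import gene TOMM20, had 5.28, 14.5, 4.32 and 7.81 CPM, and SNORA63, from the translation initiation gene EIF4A2, had 5.64, 13.3, 3.98 and 5.68 CPM. SNORA48, from EIF4A1, had 6.27, 12.7, 4.51 and 6.89 CPM. Parental replicate 2 was the highest library in all 3 genes, and parental replicate 1 lay between the knockout libraries. SNORA38, SNORA9 and SNORA38B followed the same order of libraries, with log2 fold changes of -0.75, -0.78 and -0.97 (adjusted p = 0.438, 0.437 and 0.425, edgeR).

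SNORA64 was the exception among members of standard length and was picked out after its values were seen. This U64 RNA, from the ribosomal protein gene RPS2, had 0.416 and 1.25 CPM in parental and 1.303 and 1.43 CPM in knockout libraries. Its log2 fold change was 0.73 (SE 0.69, adjusted p = 0.68, edgeR), and parental replicate 2 nearly reached the knockout values. SNORA64 overlaps exons of 4 RPS2 transcripts, and RPS2 had 1244 and 1349 CPM in parental and 1382 and 1453 CPM in knockout libraries. The part of host reads in the SNORA64 values was not tested. SNORA80A and SNORA18 were among the larger falls and were also picked out after their values were seen. SNORA80A had 1.42, 2.54, 0.700 and 0.473 CPM (log2 fold change -1.73, SE 0.61, adjusted p = 0.259, edgeR). SNORA18 had 0.719, 1.41, 0 and 0.338 CPM, where the 0 allows up to 0.175 CPM (3 reads, counting error only).

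Parental replicate 2 stood apart for these RNAs, and for other small RNAs of like length too. It exceeded parental replicate 1 in 38 of 40 tested shorter members, by a median of 1.03 on the log2 scale, against 50.7% of all tested genes and a median of 0.0092. In the 6 longer genes the median excess was 0.41. Other small RNA genes of 120 to 160 bases had a median excess of 1.19, against 1.07 for SNORA genes of that length. Within the knockout, replicate 2 exceeded replicate 1 in 36 of 40 shorter members, by a median of 0.51. Without parental replicate 2, 32 of 39 tested shorter members had a log2 fold change below 0 and their median was -0.24. Without parental replicate 1 it was -1.49, with 47 of 48 below 0.

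The number of calls moved with these libraries. Without parental replicate 1, edgeR called 14 members, all lower, against 11.4% of genes (5.7% lower), and without parental replicate 2 it called SNORA71A alone, against 9.27% (4.94% lower). Without knockout replicate 1 or 2 it called 0, against 1.05% (0.645% lower) and 1.01% (0.675% lower). The fit with no filter on low counts called 4 of 112 members lower, against 2.64% of genes (1.46% lower). The fit with the replicate number as a block called 5 of 46 lower (SNORA24, SNORA63, SNORA71A, SNORA7A and SNORA8) against 8.95% (4.8% lower).

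Summed over the 139 shorter genes, the level was 122.2 and 243.3 CPM in parental and 85.1 and 118.7 CPM in knockout libraries, a log2 ratio of the group means of -0.84. Parental replicate 1 and knockout replicate 2 differed by only 3.56 CPM. Summed over the 8 SNORA73, SNORA53 and SNORA74 genes, it was 178.5 and 244.3 CPM against 179.5 and 219.4 CPM, a log2 ratio of -0.08, with overlapping groups. Shorter genes held 40.6 and 49.9% of SNORA reads in parental libraries and 32.1 and 35.1% in knockout libraries, so this share did not overlap between groups.

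Per effective length the picture was shifted upwards. TPM of all tested genes was higher in the knockout by a median of 0.41 on the log2 scale, and the cause of this shift was not tested. 7SK itself went from 30916 and 22414 TPM to 1230 and 1393 TPM. The shorter genes summed to 3918 and 5590 TPM in parental and 3361 and 4613 TPM in knockout libraries, a log2 ratio of -0.25, or -0.66 relative to that shift. The longer genes summed to 3122 and 2931 TPM against 4263 and 4806 TPM, a log2 ratio of 0.58, or 0.17 relative to the shift. In TPM, 12 of 40 tested shorter members had both knockout libraries below both parental ones, against 5.7% of all genes. Of the 6 longer members 5 had both above, against 52.1% of all genes.

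**Figure D2:**
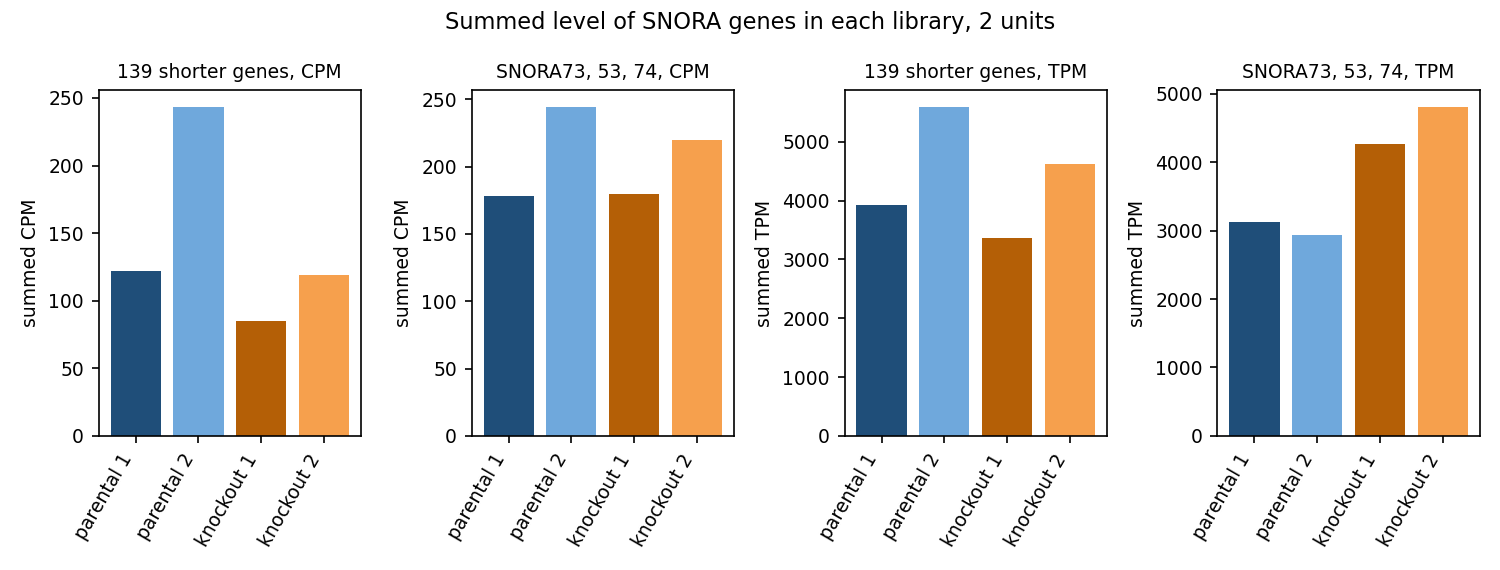
Summed level of 139 shorter SNORA genes and of 8 SNORA73, SNORA53 and SNORA74 genes in each library, as CPM (left panels) and TPM (right panels), with bars from 0. The shorter genes reach 243.3 CPM in parental replicate 2 against 122.2 CPM in replicate 1, and the longer genes separate the groups in TPM but not in CPM.

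Library fragment size differed between libraries. The deposited effective lengths imply a mean fragment of 217.0 and 206.7 bases in parental replicates 1 and 2 and of 232.9 and 225.8 bases in knockout replicates 1 and 2. All SNORA RNAs of standard length are shorter than that. Over the 4 libraries, the summed CPM of the shorter genes ran in the opposite order to fragment size, while their summed TPM and both sums of the longer genes did not. The effective length of SNORA73A was 39.8 and 46.3 bases in parental and 34.9 and 36.6 bases in knockout libraries. With effective length as an offset in the edgeR fit, the median log2 fold change was -0.82 for shorter and 0.28 for longer members, and no member was called. Beyond that offset, the part of fragment size in these values was not tested.

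Other small RNAs of like length also lay below 0. Of 17 other small RNA genes of 120 to 160 bases, all had a log2 fold change below 0, with a median of -1.36, against 36 of 37 SNORA genes of that length with a median of -0.98. In the next length class, 161 to 220 bases, SNORA genes had 3 of 6 below 0 and a median of -0.03, and the others 18 of 25 and a median of -0.86. C/D box snoRNAs, which guide ribose methylation and carry SNORD symbols, had 22 of 23 tested genes below 0 and a median of -1.29. Small Cajal body RNAs (SCARNA symbols), some of which share the H/ACA fold and guide modification of spliceosomal RNAs, had 9 of 10 above 0 and a median of 0.60, with summed levels of 458.6 and 556.6 CPM in parental and 733.6 and 792.9 CPM in knockout libraries. The differences between these classes were not tested.

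TERC, the telomerase RNA, carries an H/ACA domain outside the SNORA symbols. It had 9.80 and 6.31 CPM in parental and 10.5 and 10.7 CPM in knockout libraries, a log2 fold change of 0.39 (SE 0.27, adjusted p = 0.565, edgeR). Both knockout libraries lay above both parental ones, but replicate 1 of the parental cells was close to them.

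**Figure D3:**
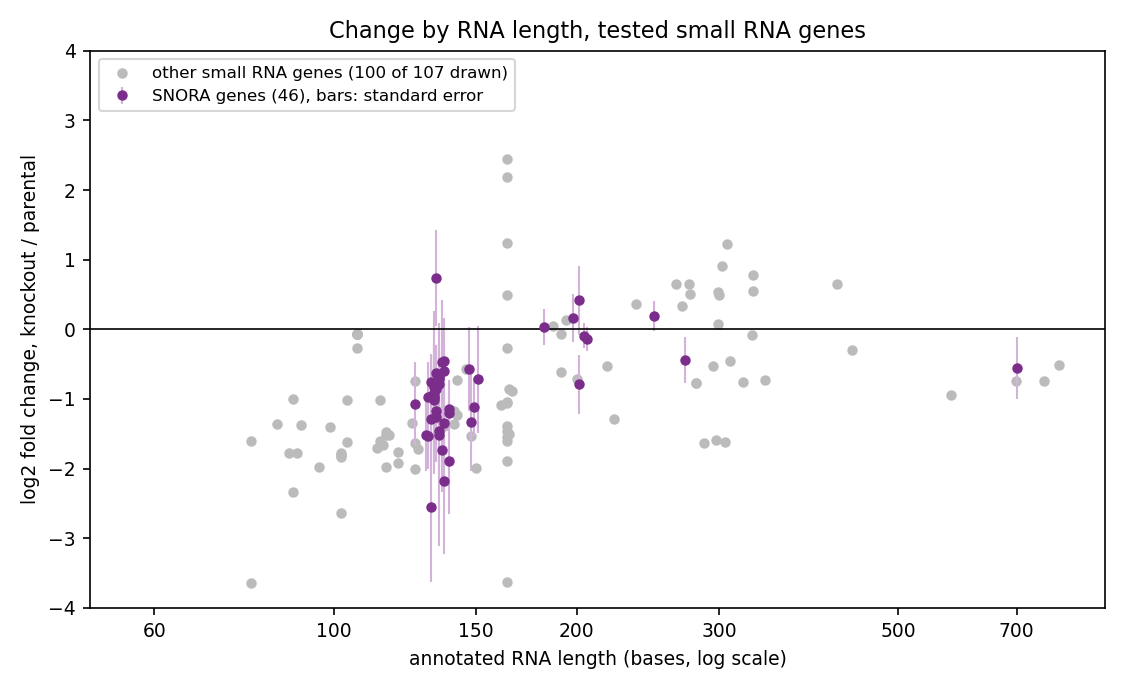
Log2 fold change (knockout over parental, edgeR) against annotated RNA length (log axis) for 46 tested SNORA genes, with standard errors, and other tested small RNA genes without the 7SK gene (of 107, those beyond 4 in size are outside the axis and not drawn). SNORA genes of 120 to 160 bases lie below 0 in 36 of 37 cases, and the 6 of 161 to 220 bases have a median of -0.03.

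Scaling on the small RNAs themselves reversed most directions. When TMM factors were taken from small RNA genes other than 7SK, the median of all genes moved to 0.97 on the log2 scale, that of shorter SNORA genes to 0.14 and that of longer ones to 1.05. Such scaling applies the same factor to every gene of a library. The gap between SNORA genes and all genes could therefore hardly change, and it adds nothing to the main fit. The small RNA genes used for the scaling include the SNORA genes themselves. No member was called under that scaling.

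Most SNORA genes lie within a host gene. A host on the same strand was found for 134 of 147, protein coding for 106 and noncoding or other for 28, in 99 distinct hosts, 22 of which hold several SNORA genes. Of 13 genes without a host, 2 had any reads, against 111 of 134 with one. Copies without reads were common in some families: 8 of 9 SNORA70 genes had none.

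Members of one host differed widely in level per length. In TAF1D, which holds 6 SNORA genes, the parental mean was 294 TPM for SNORA8, 91.7 for SNORA40, 30.9 for SNORA18, 4.54 for SNORA1 and 1.29 for SNORA25. SNORA32 in the same gene had no reads. In EIF4A2, SNORA63 was at 270 ± 95.4 TPM (SD, n = 2) and SNORA4 at 0.483 TPM, and SNORA81 had no reads in either parental library. In SNHG17, SNORA71A was at 449.9 ± 34.7 TPM, SNORA71D at 96.0 ± 2.65, SNORA71B at 85.5 ± 14.6 and SNORA71C at 11.9 TPM (SD, n = 2).

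Across all hosts the parental order per length began with SNORA73A at 1542 ± 88.0 TPM and SNORA73B at 1142 ± 10.6 TPM (SD, n = 2). SNORA71A at 449.9 and SNORA23 at 317 ± 9.26 TPM followed. SNORA8, SNORA7A, SNORA63, SNORA14B and SNORA48 came next, between 264 and 294 TPM, with SDs of 50.7 to 121 TPM, so the order among these 5 is within their spread. SNORA53, behind only the SNORA73 pair by mean parental CPM, was number 12 per length at 183 ± 19.9 TPM. Effective lengths in parental replicates 1 and 2 were 65.5 and 73.6 bases for SNORA53 and 20.3 and 22.9 bases for SNORA71A. Ranks between RNAs of different length rest on these estimates.

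No host passed the test. Of 99 hosts 97 were tested and edgeR called 0, against 0.833% of all genes, with 15 at an unadjusted p under 0.05, against 14.3%. DESeq2 called 1 (SNHG9), against 2.75%, and limma voom 0, against 0.812%. Among the 36 hosts of tested SNORA genes, 10 had an unadjusted p under 0.05, and log2 fold changes ran from -0.69 to 0.45. The median log2 fold change of these 36 was -0.10, with 22 below 0 and 14 above. Over all 97 tested hosts the median was 0.00065, with 48 below 0 and 49 above. RCC1, taken as host of the SNORA73 pair because protein-coding genes were preferred, had a log2 fold change of -0.10. SNHG3, which SNORA73A also overlaps, was not compared. SLC25A3 had -0.03, SNHG17 -0.03, TAF1D -0.10, RPL32 -0.14, EIF4A2 -0.18 and TOMM20 0.00065. Of 39 pairs of a shorter SNORA gene and a tested host, the SNORA gene had the lower log2 fold change in 38, with medians of -0.97 and -0.10. This was not a test, and pairs in 1 host share that host's value.

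**Figure D4:**
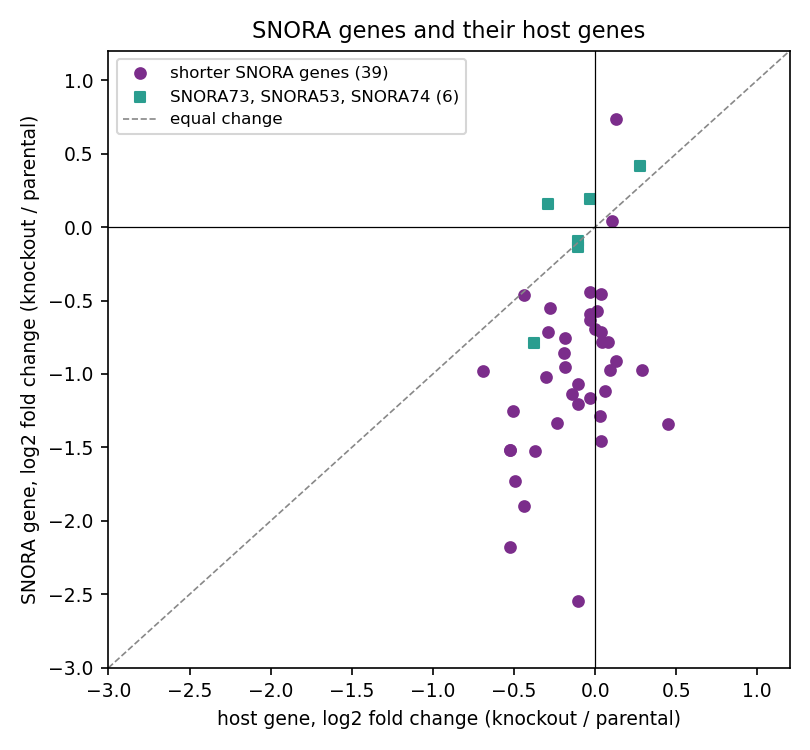
Log2 fold change (knockout over parental, edgeR) of each tested SNORA gene against that of its host gene, for 39 shorter genes and 6 SNORA73, SNORA53 and SNORA74 genes, with the line of equal change. Of the shorter genes, 38 lie below the line.

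Reads of a snoRNA and of an overlapping exon of its host cannot be told apart where they share sequence. Of 147 SNORA genes, 60 overlapped, in full or in part, an exon of another gene on the same strand, 24 of them tested. That other gene was not always the host: for some it was another small RNA gene or a second entry of the same symbol. For SNORA7A, SNORA48, SNORA63 and SNORA64 it was the host, with 4 overlapping transcripts each. Shorter tested members with such an overlap had a median log2 fold change of -1.04 (22 genes), and those without it -0.77 (18 genes).

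Genes for the proteins that build and process H/ACA particles were not called either. All 32 on the list were tested, and edgeR, DESeq2 and limma voom called 0, against 0.833%, 2.75% and 0.812% of all genes. At an unadjusted p under 0.05 there were 3 (edgeR), against 14.3% of all genes. Log2 fold changes were below 0 in 20 and above 0 in 12, with a median of -0.08. The core proteins DKC1 (pseudouridine synthase), NHP2, NOP10 and GAR1 had log2 fold changes of 0.07, -0.07, 0.0057 and -0.14, with adjusted p-values of 0.873, 0.891, 0.993 and 0.811 (edgeR). The assembly factors NAF1 and SHQ1 had -0.14 and -0.12. DKC1 itself was at 186 and 146 CPM in parental and 181 and 168 CPM in knockout libraries, so the groups overlapped.

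The 3 list genes at an unadjusted p under 0.05 were picked out after their values were seen. TTI2, a partner of the TELO2 assembly factor, had 108 and 247 CPM in parental and 60.04 and 83.0 CPM in knockout libraries, a log2 fold change of -1.31 (SE 0.33, adjusted p = 0.136, edgeR). DIS3, a nuclease of the RNA exosome, had -0.47 (adjusted p = 0.173), and RBM7, of the complex that brings nuclear RNA to the exosome, had 0.36 (adjusted p = 0.292).

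Members outside the tested set could not be compared at this depth. The 101 untested genes had at most 37 reads in all 4 libraries together, and a count of 0 allows up to 0.170, 0.238, 0.175 and 0.177 CPM in parental replicates 1 and 2 and knockout replicates 1 and 2 (3 reads, counting error only).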

How the data were processed

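Total RNA of parental and LARP7 knockout HEK293 cells had been sequenced in 2 libraries each. Per the file headers, the authors deposited estimated counts, TPM and effective length for every transcript. The submitters' processing notes name Salmon 1.6, STAR 2.5.3a, edgeR 3.24.3, cutadapt 1.6, Picard, SAMtools 1.3.1, and R 3.5.1 and 3.3.3. No source used here gives the tool behind each value, the annotation release or the strand setting. Salmon shares reads among similar transcripts, and the tests do not see that error.

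Identifiers were joined to GENCODE v29 (197318 of 198002 matched, and the rest held 0.0631 to 0.0711% of reads). Counts were added up by gene, rounded, and tested for knockout minus parental in R 4.3.3 with the quasi-likelihood test of edgeR 4.0.16, after filterByExpr and with TMM factors. A gene was called at a Benjamini-Hochberg adjusted p under 0.05 over all genes tested, with DESeq2 1.42.0 and limma 3.58.1 voom as alternatives. Standard errors were taken as log2 fold change over the square root of F. The procedure was tested on simulated counts, with changes placed only in genes above a minimum read count. It called 53% of 2-fold and 87% of 4-fold changes, and 14.6% of its calls were unchanged genes. A host is a gene other than a small RNA gene that spans the SNORA gene on its strand, protein-coding preferred. A list of H/ACA protein and processing genes was tested alongside. The mean fragment is transcript length minus effective length over transcripts of at least 3000 bases.

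Genes were named by rule: tested SNORA73, SNORA53 and SNORA74 genes, called genes, and the 15 with the highest mean log2 CPM. The rule also took the 5 highest and 5 lowest log2 fold changes at a mean log2 CPM of at least 2. Some of the 5 highest were falls. DKC1, NHP2, NOP10, GAR1, NAF1 and SHQ1 were named too. The members and lists were chosen with earlier results of these data known. Replicates of a group differed by more than counting noise, so none is a repeat deposit. 7SK reads lie under a second annotation entry at that locus, chosen after its values were seen. Some sequences are not reported here.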

Additional observations from a re-analysis of the deposited data

How the results depend on the processing

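Depth limits the 101 untested genes. As reported, 0 SNORA genes were called. DESeq2 called 1 lower, the fit with no filter 4 and the replicate block 5, and leaving out 1 library gave 0 to 14. H/ACA protein genes called were 2 of 32 with no filter (2.64% of all genes) and 2 of 32 with the block (8.95%). Their number also moved whichever library was left out. Host genes called were 1 with DESeq2, 4 of 98 with no filter (2.64% of all genes), 10 of 97 with the block (8.95%) and 0 to 24 with 1 library left out, the 24 of 98 without parental replicate 1 (11.4%). The 2 replicate numbers were not taken as pairing: over 18484 genes, deviations of same-numbered libraries correlated at 0.13.

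The median log2 change of tested SNORA genes became 0.24 under small RNA scaling and ran from -1.44 to -0.22 with 1 library left out. The summed level of shorter genes had a log2 ratio of -0.25 in TPM, 0.27 under small RNA scaling and -1.26 to -0.27 with 1 library left out, and that of longer genes 0.58, 0.95 and -0.30 to 0.16. Small RNA scaling turned the sign of 11 named genes: SNORA14B 0.46, SNORA38 0.38, SNORA38B 0.17, SNORA48 0.38, SNORA63 0.19, SNORA71B 0.61, SNORA73A 0.89, SNORA73B 0.96, SNORA74C-2 0.21, SNORA7A 0.0036 and SNORA9 0.31. The effective length offset turned SNORA73A to 0.12 and SNORA73B to 0.16. With 1 library left out in turn, 7 named genes crossed 0: SNORA14B from -1.26 to 0.19, SNORA23 from -0.26 to 0.39, SNORA53 from -0.069 to 0.42, SNORA73A from -0.34 to 0.092, SNORA73B from -0.34 to 0.19, SNORA74A from -0.21 to 0.46, and SNORA74B from -0.023 to 0.97. Their sign turned without parental replicate 1 (SNORA23, SNORA74A and SNORA74B), parental replicate 2 (SNORA14B, SNORA73A and SNORA73B), knockout replicate 1 (SNORA73A and SNORA73B) or knockout replicate 2 (SNORA23, SNORA53 and SNORA74A). With 1 library left in a group, edgeR takes its spread from the other group. The cause of these shifts was not tested. Length cutoffs in place of symbols, and leaving out genes that overlap same-strand exons of other genes, were chosen after seeing the data. They kept the direction of the sums and of the median.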
